A study of Mus musculus with 16 samples.

Results

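Oligodendrocyte development is run by a small set of transcription factors. Described here across 16 RNA libraries of mouse hippocampus are 9 genes listed with that lineage: Olig1, Olig2, Sox10, Sox8, Myrf, Nkx2-2, Nkx6-2, Nkx2-9 and Zfp488. They were chosen by name, with earlier results of these data known, and they are 9 of the 19449 genes in the deposited count table. Under lipopolysaccharide (LPS), 4 of the 9 passed the test as lower in wild-type hippocampus (Olig1, Sox10, Nkx2-2 and Nkx2-9) against 3.85% of all genes tested. Olig1 and Nkx2-9 kept that call in all 16 fits that each left out 1 library, Nkx2-2 in 10 and Sox10 in 4. A fit of only the 8 wild-type libraries called 0 genes. No member passed the test in the Tspo knockout, where 0% of genes did. The mice were 3 months old and were injected with LPS, a component of bacterial cell walls, or with PBS, the vehicle. The 4 groups were knockout LPS, knockout PBS, wild-type LPS and wild-type PBS, with 4 libraries in each. The knockout lacks Tspo, the gene of an outer mitochondrial membrane protein, and the labels do not say how the allele was made, on which strain background, or in which cells it is deleted. The LPS dose and the interval before dissection are not stated, and no source says that the libraries of a group are separate animals. Every p-value therefore measures the spread between these libraries, which may be in part technical.

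Oligodendrocytes arise from precursor cells that divide throughout life, pass through a short committed stage and then make myelin, the membrane that wraps axons. Olig2 is needed to form the lineage, Sox10 keeps its identity and, in differentiating cells, switches on Myrf, and Sox10 and Myrf together drive the genes of myelin. The other members set the timing of this sequence, as co-factors, paralogues or repressors of the genes that hold precursors back. In a bulk sample, fewer cells of a type and less RNA per cell cannot be told apart, and this holds for every level below.

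Library totals ran from 30198619 to 50009041 counts, and all 9 members passed the filter on low counts that left 16269 genes for testing. Some libraries went against their labels or stood apart. The library labelled knockout PBS replicate 1 held 2.33 CPM (counts scaled to library size) of Tspo, against 0.152 to 0.47 CPM in the other 3 knockout PBS libraries and 2.06 to 5.17 CPM in wild-type PBS. The library labelled wild-type LPS replicate 1 held 0.641 CPM of Lcn2, a gene strongly induced by inflammation, against 209 to 238 CPM in wild-type LPS replicates 2 to 4. The same library and wild-type PBS replicate 1 also stood about 4 log2 units below the wild-type PBS mean in a choroid plexus score, at -3.97 and -4.11. Gabra6, a gene of the cerebellum, reached 113.9 CPM in a knockout PBS library, against at most 0.232 CPM in any other group. Knockout PBS replicate 2 had the highest summed level of neighbouring-region genes in its group, 767 CPM. In a score of 14 of these genes, their mean log2 level relative to wild-type PBS, it was not the highest. It stood at -0.32 there, below knockout PBS replicates 1 (0.46) and 3 (0.02) and above replicate 4 (-1.48). Sample titles carry codes of unstated meaning, and in the knockout comparison of LPS with PBS, as in both comparisons of genotypes, the compared groups have no code in common, so code and group cannot be told apart there. Within wild type, only LPS replicate 1 and PBS replicate 4 share one. The other wild-type PBS libraries carry a code that no wild-type LPS library has, and the reverse also holds. Outside that pair, code and treatment therefore cannot be told apart within wild type either. Read from Y-linked genes, 2 libraries were male in each knockout group and 1 in each wild-type group.

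The members differed widely in level. Per kilobase of annotated exon, the mean over the 16 libraries was 53.2 CPM per kb for Olig1, 19.7 for Sox10, 15.8 for Sox8, 12.8 for Olig2 and 11.1 for Myrf. It was 7.62 CPM per kb for Nkx6-2, 4.52 for Zfp488, 1.87 for Nkx2-2 and 0.445 for Nkx2-9. Olig1 therefore stood clear of the rest, and the low end held the paralogues Nkx2-2 and Nkx2-9. The ranges over libraries did not overlap between Olig1 and Sox10, between Zfp488 and Nkx2-2, or between Nkx2-2 and Nkx2-9. The other neighbours in this order overlapped, although Sox10 per kb was above Sox8 in 15 of 16 libraries and Sox8 above Olig2 in 14 of 16.

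**Figure D1:**
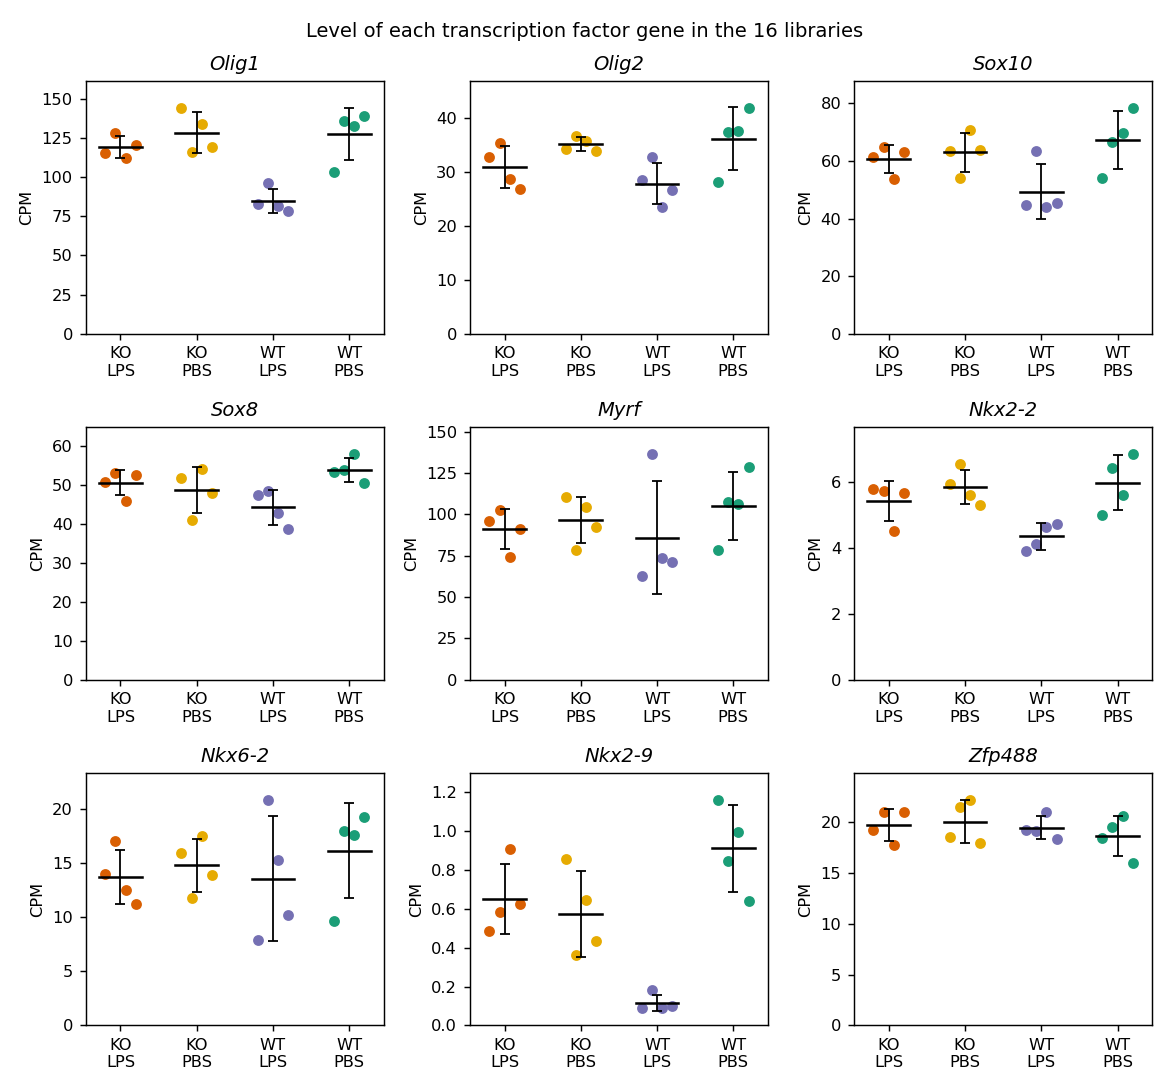
Level of each member in CPM (vertical axes, each from 0) in every library, by group, with points for libraries and bars for the mean and SD of 4 libraries. Olig1 and Nkx2-9 are lower in all 4 wild-type LPS libraries than in any other library, while Zfp488 has groups that overlap throughout.

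The first question was what LPS did to these factors in wild-type mice. Of the 9 members, 4 passed the test as lower in wild-type LPS than in wild-type PBS and none as higher, where 3.85% of all genes tested passed as lower (edgeR quasi-likelihood test, Benjamini-Hochberg adjusted p below 0.05). The median log2 fold change of the members was -0.38, against 0.0023 over all genes. For 4 members (Olig1, Sox8, Nkx2-2 and Nkx2-9) every wild-type LPS library lay below every wild-type PBS library, which held for 4.41% of all genes.

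The Olig pair came first. Olig1 (chr16:91269772-91271933, plus strand of GRCm38), a basic helix-loop-helix factor that promotes maturation and repair of myelin, stood at 83.1, 96.2, 81.7 and 78.3 CPM in wild-type LPS replicates 1 to 4, against 103, 136, 133 and 139 CPM in wild-type PBS. The groups did not overlap, and the lowest wild-type PBS library was replicate 1. Olig1 fell by 0.59 on the log2 scale (SE 0.10, edgeR adjusted p = 0.00377), to 84.8 ± 7.87 CPM in wild-type LPS against 128 ± 16.6 CPM in wild-type PBS (mean ± SD, n = 4 each). Its neighbour Olig2 (chr16:91225457-91228677), 41.1 kb away on the same strand and the factor that founds the lineage, stood at 28.5, 32.7, 23.4 and 26.6 CPM in wild-type LPS, against 28.0, 37.3, 37.5 and 41.8 CPM in wild-type PBS. These groups overlapped through wild-type PBS replicate 1. The log2 fold change of Olig2 was -0.38 ± 0.12 (SE) and missed the threshold (edgeR adjusted p = 0.0667). Leaving out wild-type PBS replicate 1 put Olig2 past the threshold (-0.48, adjusted p = 0.0173), as did leaving out wild-type LPS replicate 2 (-0.46, adjusted p = 0.0463).

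Of the SoxE factors, Sox10 (chr15:79154908-79165240, minus strand), which lies 4.40 Mb from Tspo, activates Myrf and the myelin genes. It stood at 44.7, 63.5, 44.0 and 45.3 CPM in wild-type LPS, against 54.2, 66.7, 69.6 and 78.3 CPM in wild-type PBS. Wild-type LPS replicate 2 stood apart from the other 3 of its group and overlapped wild-type PBS. Sox10 fell by 0.44 on the log2 scale (SE 0.13, edgeR adjusted p = 0.0442), a call held in 4 of the 16 fits that each left out 1 library and missed in 12, at an adjusted p of at most 0.14. Its paralogue Sox8 (chr17:25565892-25570686), which can stand in for Sox10 in part, stood at 47.3, 48.4, 42.6 and 38.6 CPM in wild-type LPS, against 53.3, 53.9, 57.9 and 50.5 CPM in wild-type PBS. Here the groups did not overlap, yet the log2 fold change of -0.28 ± 0.09 (SE) missed the threshold (edgeR adjusted p = 0.06). Leaving out the library labelled wild-type LPS replicate 1 put Sox8 past the threshold (-0.32, adjusted p = 0.0288), as did leaving out knockout PBS replicate 2 (-0.28, adjusted p = 0.0354).

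Myrf (chr19:10208272-10240748), a membrane-bound factor that cuts itself loose to enter the nucleus and turn on myelin genes, showed no difference that passed. It stood at 62.8, 136, 73.5 and 70.9 CPM in wild-type LPS, against 78.3, 107, 106 and 128 CPM in wild-type PBS. Wild-type LPS replicate 2 held the highest Myrf level of all 16 libraries, and the other 3 wild-type LPS libraries lay below all of wild-type PBS. The log2 fold change was -0.29 ± 0.21 (SE, edgeR adjusted p = 0.444). Without that library it was -0.61 ± 0.16 (adjusted p = 0.0401), which was the only one of the 16 fits leaving out a library in which Myrf passed.

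The NK homeodomain genes followed. Nkx2-2 (chr2:147177546-147194243), which times differentiation and represses the precursor receptor gene Pdgfra, stood at 3.91, 4.10, 4.64 and 4.71 CPM in wild-type LPS, against 4.99, 6.42, 5.61 and 6.84 CPM in wild-type PBS. The groups did not overlap, and the highest wild-type LPS library, at 4.71 CPM, lay just under the lowest wild-type PBS library, at 4.99 CPM. Nkx2-2 fell by 0.46 on the log2 scale (SE 0.12, edgeR adjusted p = 0.0308). The call was missed in 6 of the 16 fits that left out 1 library (without wild-type LPS replicate 2, 3 or 4, or wild-type PBS replicate 2, 3 or 4), at an adjusted p of at most 0.103. Nkx6-2 (chr7:139579376-139582797), known from the paranodal contacts of myelin, stood at 7.88, 20.8, 15.2 and 10.2 CPM in wild-type LPS, against 9.60, 18.0, 17.6 and 19.2 CPM in wild-type PBS. The highest and the lowest of these 8 libraries were both wild-type LPS, and the log2 fold change of -0.25 ± 0.27 (SE) did not pass (edgeR adjusted p = 0.629).

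Nkx2-9 (chr12:56611389-56613284), a paralogue of Nkx2-2 known from the floor of the embryonic neural tube, had the largest change of the 9. It stood at 0.0916, 0.18, 0.0881 and 0.101 CPM in wild-type LPS, against 1.16, 0.844, 0.996 and 0.639 CPM in wild-type PBS. These rest on few reads, 3, 9, 3 and 4 counts in wild-type LPS against 40, 28, 30 and 24 counts in wild-type PBS, or 19 against 122 in sum. The highest wild-type LPS library, at 0.18 CPM, was well below the lowest wild-type PBS library, at 0.639 CPM. Nkx2-9 fell by 2.90 on the log2 scale (SE 0.36, edgeR adjusted p = 0.00251), the third smallest p of all genes tested. Both Nkx2-9 and Olig1 kept their calls in all 16 fits that left out a library. In the pair of wild-type libraries that share a title code, the LPS library is the one labelled wild-type LPS replicate 1, whose Lcn2 of 0.641 CPM went against its label. It held 0.0916 CPM of Nkx2-9 against 0.639 CPM in the PBS library, and 83.1 CPM of Olig1 against 139 CPM, with no replicate.

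Zfp488 (chr14:33967070-33978764), a zinc finger co-repressor that works with Olig2, was next. It stood at 19.2, 19.1, 21.0 and 18.3 CPM in wild-type LPS, against 18.4, 19.5, 20.6 and 16 CPM in wild-type PBS. The groups overlapped, and its log2 fold change was 0.06 ± 0.09 (SE, edgeR adjusted p = 0.753), the only positive one of the 9. Of its 31-base words, 18.2% occur in other genes, so its count is uncertain where reads were shared.

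Promoters of members that fell are shown beside that of Zfp488, which did not pass, since the RefSeq promoter table (GRCm38.p6) holds 250 bases before and 50 after the start for 6 members. Capitals mark each match, on either strand, to the SOX words ACAAAG and AACAAT or to the E-box CANNTG, the word read by basic helix-loop-helix factors.
Nkx2-2, chr2:147186353-147186652, minus strand: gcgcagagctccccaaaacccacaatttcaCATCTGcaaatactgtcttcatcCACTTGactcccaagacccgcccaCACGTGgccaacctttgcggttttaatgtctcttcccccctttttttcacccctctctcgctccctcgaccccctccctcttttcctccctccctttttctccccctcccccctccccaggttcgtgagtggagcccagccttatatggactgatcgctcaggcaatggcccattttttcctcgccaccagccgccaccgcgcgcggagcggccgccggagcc
Nkx2-9, chr12:56613235-56613534, minus strand: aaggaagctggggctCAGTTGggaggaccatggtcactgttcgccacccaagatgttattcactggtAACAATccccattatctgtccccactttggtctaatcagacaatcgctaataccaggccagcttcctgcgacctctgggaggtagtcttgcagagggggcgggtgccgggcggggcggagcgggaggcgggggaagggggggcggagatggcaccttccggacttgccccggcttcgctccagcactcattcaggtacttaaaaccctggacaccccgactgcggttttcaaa
Zfp488, chr14:33978715-33979014, minus strand: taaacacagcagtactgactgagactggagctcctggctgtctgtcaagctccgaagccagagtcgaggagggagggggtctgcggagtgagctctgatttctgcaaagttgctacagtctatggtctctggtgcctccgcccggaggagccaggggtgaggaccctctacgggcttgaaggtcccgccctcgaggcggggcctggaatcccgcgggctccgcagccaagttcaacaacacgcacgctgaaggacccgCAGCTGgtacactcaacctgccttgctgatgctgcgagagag
The Nkx2-2 window held 3 E-box matches and no SOX word, that of Nkx2-9 held 1 E-box match and 1 SOX word (AACAAT), and that of Zfp488 held 1 E-box match. Such words are common, since 72.3% of 32851 promoters held an E-box word and 27.0% held either SOX word.

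Partners, brakes and targets of the members were read from fixed lists, on the log2 scale in wild-type LPS over wild-type PBS. Of 19 myelin genes, many of them known targets of Sox10 and Myrf, 15 fell and none rose, with a median log2 fold change of -0.89. Among those with the smallest p were Ugt8a, which makes the myelin lipid galactosylceramide (-1.75 ± 0.23), Mog, a protein of the outer myelin surface (-1.28 ± 0.18), and Gjb1, a connexin gene (-1.42 ± 0.22; edgeR adjusted p at most 0.00306 for each). Of 13 brakes, genes that hold differentiation back, 2 fell: Tmem98, whose protein blocks the self-cleavage of Myrf (-0.84 ± 0.23, adjusted p = 0.0347), and Gpr17, a receptor of the committed stage (-0.54 ± 0.15, adjusted p = 0.0325). Of 18 partners, co-factors and upstream regulators of the members, Sox17 alone fell (-0.58 ± 0.17, adjusted p = 0.0474), and the median of the list was 0.05. Of 11 precursor genes 2 fell, C1ql1 (-0.92 ± 0.16) and Cacng4 (-0.72 ± 0.17), while Pdgfra, the receptor repressed by Nkx2-2, had a log2 fold change of 0.21 ± 0.11 (adjusted p = 0.242). Of 9 genes of the committed stage 2 fell, Enpp6 (-1.01 ± 0.21) and the shared Gpr17.

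Markers of neighbouring tissue moved with the same contrast. Of 14 tested genes that mark regions beside the hippocampus, such as thalamus, 5 fell in wild-type LPS, with a median log2 fold change of -1.01, and their summed level ran from 168 to 246.5 CPM in wild-type LPS against 242 to 804 CPM in wild-type PBS. None of 7 choroid plexus genes passed, with summed levels of 14.0 to 1249 CPM in wild-type LPS and 11.4 to 3412 CPM in wild-type PBS. Their part in the members' differences was not tested. Without both libraries low in choroid plexus genes, 5 of 9 members passed as lower (Olig2 in addition), where 8.16% of all genes did. Without both libraries at odds with their labels 4 did, with Sox8 past and Sox10 not, where 9.23% of all genes did. In each of these fits 15 of 19 myelin genes passed. Of 6 Schwann cell genes, which would mark peripheral nerve, Pmp2 was at 0 in some libraries and 1 of the 4 tested rose (Prx, 1.03 ± 0.28), with summed levels of 92.7 to 115 CPM in wild-type LPS and 84.9 to 89.3 CPM in wild-type PBS. Among markers of other cells, none of 8 neuron genes and none of 6 ependymal genes passed, and 2 of 7 astrocyte genes rose (Gfap, 1.68 ± 0.34, and Aldh1l1, 0.55 ± 0.12). Of 7 microglia genes C1qa rose (1.38 ± 0.26) and P2ry12 fell (-1.35 ± 0.33), of 6 endothelial genes 1 rose and 2 fell, and of 4 pericyte genes Rgs5 fell (-0.66 ± 0.10).

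Nkx2-9 had another companion. Across libraries, the genes whose deviations from the group means were most like its own included the haemoglobin genes Hba-a2 (r = 0.825) and Hbb-bt (r = 0.814), after Lyar (r = 0.863), over 16 libraries. A list of 8 red blood cell genes was therefore read after the values were seen, and 7 of them were in the table. Their summed level ran from 12.6 to 108 CPM in wild-type LPS (median 84.4) against 63.6 to 820 CPM in wild-type PBS (median 419). In the knockout it ran from 12.6 to 178 CPM under LPS and from 17.3 to 211 CPM under PBS. None of the 6 tested passed in any comparison, with a median log2 fold change of -2.65 in wild-type LPS over wild-type PBS and 0.37 in knockout LPS over wild-type LPS. Their part in the Nkx2-9 difference was not tested.

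**Figure D2:**
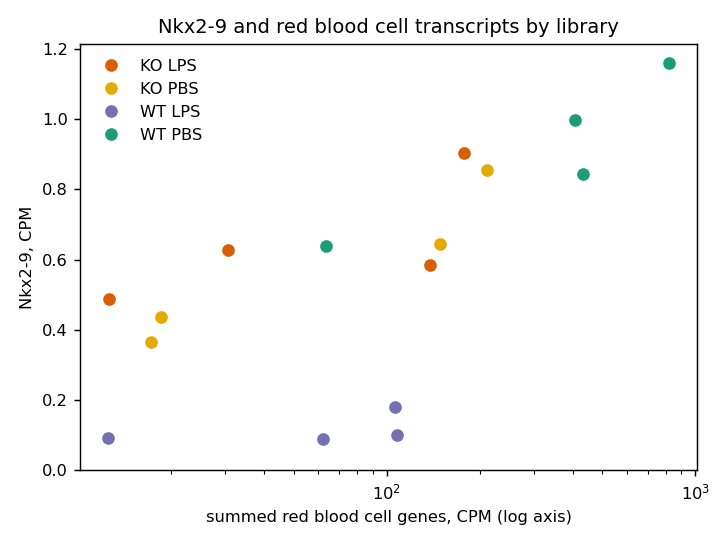
Nkx2-9 level in CPM (vertical linear axis) against the summed level of 7 red blood cell genes in CPM (horizontal log axis). Each of the 16 libraries is a point coloured by group. The 4 wild-type LPS libraries lie lowest in Nkx2-9, at 0.0881 to 0.18 CPM. Red blood cell levels in wild-type LPS overlap those of both knockout groups. Their median is 84.4 CPM, against 419 CPM in wild-type PBS, and their part in the Nkx2-9 difference was not tested.

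The next comparison asked whether LPS changed the members in the knockout. None of the 9 passed, where 0% of all genes did by edgeR (1120 had an unadjusted p below 0.05), and no member had an unadjusted p below 0.05. DESeq2 and limma-voom called no member either, where they called 3 and 0 genes in all. Log2 fold changes ran from -0.18 (Olig2) to 0.16 (Nkx2-9), with a median of -0.08 against -0.01 over all genes. Olig1 stood at 115, 128, 112 and 120.7 CPM in knockout LPS, against 144, 116, 134 and 119 CPM in knockout PBS. Nkx2-9 stood at 0.487, 0.585, 0.905 and 0.626 CPM in knockout LPS, against 0.854, 0.364, 0.644 and 0.436 CPM in knockout PBS. Sox10 stood at 61.3, 64.7, 53.9 and 63.3 CPM in knockout LPS, against 63.6, 54.1, 70.6 and 63.8 CPM in knockout PBS. Groups overlapped for all 9 members, where 6.55% of all genes had groups that did not. The myelin list had a median log2 fold change of -0.06, with none of 19 past the threshold. Genes of neighbouring regions had summed levels of 302 to 679 CPM in knockout LPS and 139 to 767 CPM in knockout PBS. Their part was not tested.

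Between genotypes under PBS no member passed the test. The count was 0 of 9, where 0.0369% of all genes did. None had an unadjusted p below 0.05 by edgeR, where 841 of 16269 genes did. DESeq2 and limma-voom called none of the 9, where they called 17 and 308 genes in all. Log2 fold changes of knockout PBS over wild-type PBS ran from -0.64 ± 0.31 (Nkx2-9, edgeR adjusted p = 0.918) to 0.10 ± 0.09 (Zfp488). Nkx2-9 averaged 0.575 ± 0.221 CPM in knockout PBS and 0.91 ± 0.222 CPM in wild-type PBS (SD, n = 4 each), with 2 of 4 knockout PBS libraries below all of wild-type PBS. Without the library labelled knockout PBS replicate 1, whose Tspo went against its label, Nkx2-9 was at -0.91 ± 0.33 (SE, edgeR adjusted p = 0.858), and 1 member had an unadjusted p below 0.05 with 0 past the threshold. Olig1 averaged 128 ± 13.1 CPM in knockout PBS and 128 ± 16.6 CPM in wild-type PBS. Groups overlapped for all 9 members, and for all but 3.28% of genes. Summed levels of neighbouring-region genes ran from 139 to 767 CPM in knockout PBS and from 242 to 804 CPM in wild-type PBS.

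**Figure D3:**
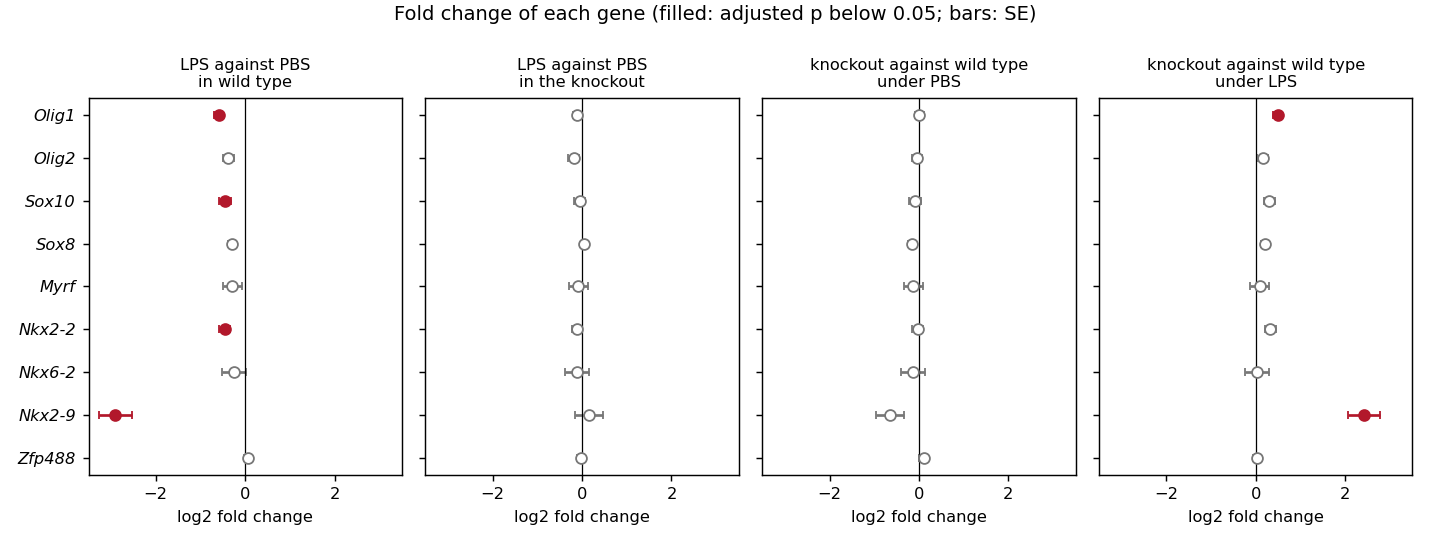
Log2 fold change of each member (horizontal axis) with its SE in the 4 pairwise comparisons, from the edgeR fit over 16 libraries. Nkx2-9 stands out at -2.90 in wild-type LPS over wild-type PBS and at 2.42 in knockout LPS over wild-type LPS, and the changes within the knockout lie between -0.18 and 0.16.

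In knockout LPS over wild-type LPS, 2 of 9 members passed as higher, Olig1 and Nkx2-9, where 4.61% of all genes passed as higher, and the median log2 fold change of the 9 was 0.19 against -0.0016 over all genes. Both also had groups that did not overlap, as had 7.35% of all genes in this direction. The wild-type LPS libraries serve here as well as in the comparison within wild type, so the values of both are set side by side and do not support each other. Olig1 stood at 115, 128, 112 and 120.7 CPM in knockout LPS, against 83.1, 96.2, 81.7 and 78.3 CPM in wild-type LPS. Every knockout LPS library was above every wild-type LPS library, and the log2 fold change was 0.49 ± 0.10 (SE, edgeR adjusted p = 0.00694). Nkx2-9 stood at 0.487, 0.585, 0.905 and 0.626 CPM in knockout LPS, against 0.0916, 0.18, 0.0881 and 0.101 CPM in wild-type LPS. Again no library overlapped, with 98 counts summed over knockout LPS and 19 over wild-type LPS, and the log2 fold change was 2.42 ± 0.36 (SE, edgeR adjusted p = 0.00308).

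The other members did not pass in knockout LPS over wild-type LPS. Nkx2-2 stood at 5.76, 5.70, 4.50 and 5.66 CPM in knockout LPS, against 3.91, 4.10, 4.64 and 4.71 CPM in wild-type LPS. Knockout LPS replicate 3 alone reached into the wild-type range, and the log2 fold change was 0.32 ± 0.12 (SE, edgeR adjusted p = 0.102). Sox10 stood at 0.30 ± 0.13 on the same scale (adjusted p = 0.139), and leaving out wild-type LPS replicate 2 put it past the threshold (0.44 ± 0.11, adjusted p = 0.0311). Sox8 was at 0.19 ± 0.09 (adjusted p = 0.167), Olig2 at 0.15 ± 0.12, Myrf at 0.08 ± 0.21, Zfp488 at 0.02 ± 0.09 and Nkx6-2 at 0.01 ± 0.27. Of the myelin list 14 of 19 passed as higher, with a median of 0.70, led by Ugt8a (1.62 ± 0.23) and Mog (1.06 ± 0.18). Of the brakes, 3 of 13 rose: Id4, an inhibitor of helix-loop-helix factors (0.43 ± 0.11), Gpr17 (0.61 ± 0.15) and Tmem98 (0.75 ± 0.23). Of the partners, only Hdac1, a histone deacetylase needed in the lineage, passed, as lower (-0.28 ± 0.07, edgeR adjusted p = 0.0253). C1ql1 and Cacng4 of the precursor list and Enpp6 of the committed list rose too, at 0.92, 0.84 and 1.01. Of 14 genes of neighbouring regions 3 rose, with summed levels of 302 to 679 CPM in knockout LPS and 168 to 246.5 CPM in wild-type LPS.

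Markers of other cells moved with knockout LPS over wild-type LPS as well. Of 8 neuron genes 2 rose (Gad1, 0.29 ± 0.07, and Gad2, 0.42 ± 0.13, both enzymes of GABA synthesis). Of 7 astrocyte genes Gja1 rose (0.37 ± 0.11) and 3 fell (Gfap, -1.74 ± 0.34, Fgfr3, -0.53 ± 0.14, and Aldh1l1, -0.47 ± 0.12), and summed levels were 3637 to 4098 CPM in knockout LPS and 3778 to 4734 CPM in wild-type LPS. Of 7 microglia genes P2ry12 rose (1.47 ± 0.33) and 2 fell (C1qa, -1.36 ± 0.26, and Aif1, -0.74 ± 0.22), with 262 to 326 CPM in knockout LPS and 248 to 422 CPM in wild-type LPS. Of 6 endothelial genes 3 fell (Ly6c1, -1.62 ± 0.28, Pecam1, -0.88 ± 0.18, and Cldn5, -0.57 ± 0.14), with 129 to 166 CPM in knockout LPS and 159 to 245.8 CPM in wild-type LPS. Of 4 pericyte genes Rgs5 rose (0.50 ± 0.10), and of the 4 Schwann cell genes tested Prx fell (-1.09 ± 0.28). None of 7 choroid plexus genes and none of 6 ependymal genes passed. The part of these cells and of neighbouring regions in the members' differences was not tested.

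Whether LPS acted differently in the genotypes was tested as an interaction. Only Nkx2-9 passed of the 9 members (0.553% of all genes passed in its direction). Its log2 fold change under LPS was 0.16 in the knockout and -2.90 in wild type. The difference between these was 3.06 ± 0.48 (SE, edgeR adjusted p = 0.0388). The call held in 5 of the 16 fits that each left out a library, at log2 differences from 2.87 to 3.39 and adjusted p from 0.00163 to 0.118. Olig1 differed by 0.48 ± 0.14 (adjusted p = 0.0756), and passed without the library labelled wild-type LPS replicate 1 (0.47, adjusted p = 0.0401) or without wild-type PBS replicate 1 (0.57, adjusted p = 0.0388). Sox8, Nkx2-2 and Sox10 had interaction terms of 0.34, 0.35 and 0.39, and none of them passed (edgeR adjusted p from 0.136 to 0.253). Zfp488 had the only negative term, -0.08 ± 0.13. Under this fit, a difference between the genotypes in the LPS effect therefore passed for Nkx2-9 and for no other member. The Nkx2-9 call was missed in 11 of the 16 fits that left out a library. It also rests on 19 counts summed over wild-type LPS.

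Members were also compared with each other inside each library. In 4 such log2 differences and 4 comparisons, 16 exact two-sided permutation tests were made, each with a smallest possible p of 0.0286, and none passed after adjustment. With that smallest p, a test could pass only if most of the 16 reached it. The missing calls therefore do not decide whether a ratio differed. Olig1 minus Olig2 averaged 1.95 ± 0.16 in knockout LPS and 1.61 ± 0.13 in wild-type LPS (SD, n = 4 each; exact permutation p = 0.0286, adjusted p = 0.114), with all 4 knockout LPS libraries above all of wild-type LPS. The mean log2 level of the myelin list minus that of Sox10 averaged 0.36 ± 0.30 in wild-type LPS and 0.93 ± 0.08 in wild-type PBS (exact permutation p = 0.0286, adjusted p = 0.114). All 4 wild-type LPS libraries lay below every wild-type PBS library in that measure. In knockout LPS it averaged 0.88 ± 0.05, and in knockout PBS 0.90 ± 0.10. Sox8 minus Sox10 averaged -0.26 ± 0.02 in knockout LPS and -0.37 ± 0.05 in knockout PBS (exact permutation p = 0.0286, adjusted p = 0.114), with all 4 knockout LPS libraries above all of knockout PBS. For Myrf minus Olig2 the smallest exact permutation p over the 4 comparisons was 0.6.

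**Figure D4:**
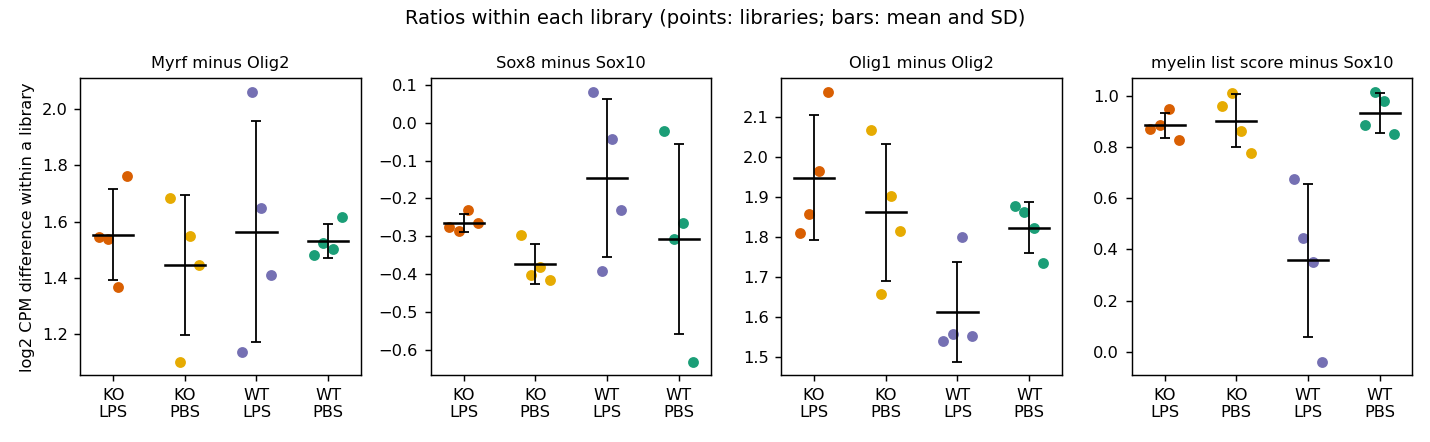
Difference in log2 CPM between a pair of members, or between the myelin list and Sox10, in each library by group (points), with the mean and SD of 4 libraries as bars. The myelin list minus Sox10 lies lower in wild-type LPS (0.36 ± 0.30) than in wild-type PBS (0.93 ± 0.08).

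Members also varied together from library to library inside the groups. Over deviations of log2 CPM from the group means in 16 libraries, 6 of 36 pairs passed a permutation test that shuffled libraries within groups (100000 resamples, Benjamini-Hochberg over 36 pairs). All 6 joined the same 4 genes, Olig1, Sox10, Myrf and Nkx6-2. Sox10 and Myrf were the closest pair, with Pearson r = 0.94 (permutation p = 0.00052, adjusted p = 0.00624) and Spearman rho = 0.865 (permutation p = 0.00086, adjusted p = 0.0103), and r = 0.892 without the 2 libraries farthest from the median of Sox10, wild-type LPS replicate 2 and wild-type PBS replicate 1. Myrf and Nkx6-2 had r = 0.865 (permutation p = 0.0002, adjusted p = 0.00504) and rho = 0.835 (permutation p = 0.00013, adjusted p = 0.00468), and r = 0.775 without 2 libraries. The other 4 pairs had r from 0.773 to 0.833, and from 0.592 to 0.811 without 2 libraries. Olig2 passed with none, its highest r being 0.703 with Sox10 (adjusted p = 0.0869 from the permutations). Nkx2-2 and Nkx2-9 ran the opposite way at r = -0.605 (permutation p = 0.0237, adjusted p = 0.0932), and Zfp488 had a median r of 0.003 with the other 8.

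**Figure D5:**
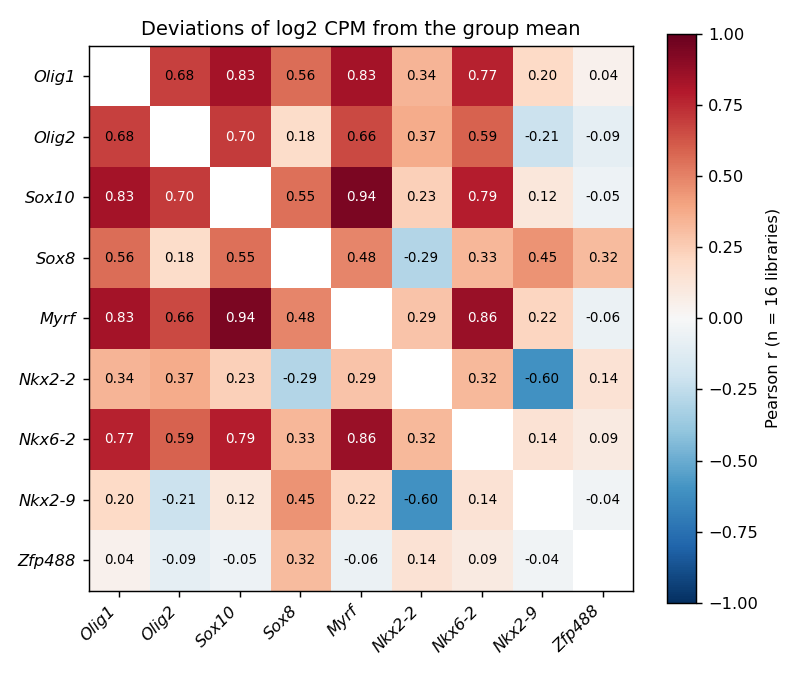
Pearson r between members, over the deviations of log2 CPM from the group means in 16 libraries, with red for positive and blue for negative r. The darkest cells join Sox10, Myrf, Olig1 and Nkx6-2, and Sox10 with Myrf is highest at 0.94.

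The genes most like each member by the same measure, among 12713, were named by a fixed rule as the 3 with the highest r. For Olig1 they were Csrp1 (r = 0.932), S1pr5 and Kif13b, and for Olig2 Gss (r = 0.959), Rnf112 and Nmral1. For Sox10 they were Plekhg3 (r = 0.969), Tmem63a and Cd82, and for Myrf Daam2 (r = 0.968), Sec14l5 and Trf, the transferrin gene, which is also on the myelin list. For Sox8 they were Fbxo46 (r = 0.906), Jam3 and Cish, for Nkx2-2 Bbs12 (r = 0.902), Slc9a5 and Vps35l, for Nkx6-2 Rffl (r = 0.933), Cers2 and Lipe, and for Zfp488 Tmem129 (r = 0.873), Ccnt2 and Rttn. These are descriptions over 16 libraries that share their depth and tissue make-up with the member.

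Overlapping genes limit some of these counts, because no source says that strand was used in counting. Nkx6-2 overlaps exons of Inpp5a on the opposite strand, with which it shares 11.6% of its 31-base words. Olig1 overlaps Gm15966 by 157 bases, Sox8 overlaps 2810468N07Rik by 329 and Nkx2-2 overlaps Nkx2-2os by 278, all on the opposite strand. Olig2 shared no 31-base word with another gene, Sox10 0.822% (with Sox9) and Nkx2-9 2.14%.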

How the data were processed

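RNA of 16 hippocampus libraries was read from 1 deposited table of estimated counts per gene, which held whole numbers for 19449 genes, none with a sum below 10. The authors' tools were MultiQC 1.13, Salmon 1.9.0, DESeq2 and DESeq, per the submitters' processing notes, which give no roles; the genome build and annotation are not given in the sources used here. Libraries were prepared with a NEBNext Ultra kit, per the labels' protocols. Symbols, positions and exon lengths came from GENCODE M21 on GRCm38; 120 identifiers with no symbol held 0.106% of the counts.

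The counts were filtered with filterByExpr, which removed 3180 genes, scaled by TMM, and fitted with a mean for each group over all 16 libraries in edgeR 4.0.16 (R 4.3.3; biological coefficient of variation 0.177). The 4 pairwise comparisons and the interaction were tested by the quasi-likelihood F test, with Benjamini-Hochberg adjustment over 16269 genes. An SE is the size of the log2 fold change over the root of its F. CPM used TMM-scaled library sizes, log2 CPM a prior count of 2. The members and lists were chosen with earlier results of these data known. All 9 members are named, and of each list up to 4 genes past the threshold with the smallest p in a comparison; some genes are not reported here. Lists are given by counts and medians.

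Alternatives were DESeq2 1.42.0, limma-voom 3.58.1 with sample weights, RLE scaling, 2 other filters, a replicate block, fits of 8 libraries, each library left out, and a prior count of 0.5 for the ratios. Wild-type PBS replicates 2 and 3 were also summed. They were the closest pair (chi-square over degrees of freedom 3.90, other pairs 12.8 to 119) but differed by more than sampling noise. That does not decide whether they came from separate animals, since preparations of 1 animal can differ too. They were counted separately in the main fit. Sex as a covariate and leaving out 2 pairs of libraries were added after seeing the data. The fit was tested on simulated counts. The reads carry no molecular identifiers, so counts are not all independent molecules. With totals of at least 30198619, counting error alone gives a coefficient of variation of 18.1% to 45.9% for Nkx2-9 and 6.96% to 7.69% for Nkx2-2, against observed values of 24.4% to 38.5% and 8.97% to 13.9% within groups.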

Additional observations from a re-analysis of the deposited data

Results flagged for a closer look

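Of 36 groups of 4 libraries, 1 for each member and group, and 16 for the ratios, 6 had a library far from the other 3 by Dixon's test at the 95% level, and chance gives about 1 in 20. Wild-type LPS replicate 2 did so for 3 members: Sox10 at 63.5 CPM, Myrf at 136 CPM and Nkx2-9 at 0.18 CPM, each the highest of its group. Nkx2-2 was low in knockout LPS replicate 3 at 4.50 CPM, and Nkx6-2 was low in wild-type PBS replicate 1 at 9.60 CPM. Olig1 minus Olig2 was high in wild-type LPS replicate 3, at 1.80 on the log2 scale. The effect of LPS on Nkx2-9 differed between knockout and wild type by 3.06 on the log2 scale (edgeR interaction test, adjusted p = 0.0388).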

How the results depend on the processing

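Olig1 and Nkx2-9 kept their calls in wild-type LPS over wild-type PBS, and in knockout LPS over wild-type LPS, in every fit that left out a library and in every other setting run, except that Nkx2-9 was removed by a filter that asked for 1 CPM or more in 4 libraries and that a fit of only the 8 wild-type libraries called 0 genes (edgeR; 6 members at an unadjusted p below 0.05, Nkx2-9 at an adjusted p of 0.0725). The count of members is to be read against the share of all genes called in the same direction, which the settings move too. In wild type the 4 members past the threshold as lower (3.85% of all genes) became 6 with DESeq2 (5.89%) or limma-voom (13.6%), 2 with replicates 2 and 3 of wild-type PBS summed (1.67%), and 2 to 5 when a library was left out (1.35% to 9.59%). The count was 2 without wild-type LPS replicate 3 (1.35%) or 4 (2.03%) or wild-type PBS replicate 2 (1.58%), 3 (1.59%) or 4 (4.56%). In knockout LPS over wild-type LPS the 2 that passed as higher (4.61%) became 4 with limma-voom (11.3%) and 1 with the CPM filter (5.03%). The 1 positive interaction call (0.553%) became 2 with DESeq2 (3.47%), 4 with limma-voom (11.8%), 2 without both libraries low in choroid plexus genes (6.12%), 2 without both libraries at odds with their labels (6.55%), and 0 to 2 when a library was left out (0% to 7.21%). It became 0 with the CPM filter (0.151%; 2 members at an unadjusted p below 0.05 by edgeR) or the summed libraries (0%; 3 members). The cause was not tested, apart from the genes and libraries the settings themselves remove. Member counts at an unadjusted p below 0.05, here and for the replicate block below, are also to be read against all genes. In the main edgeR fit 3965 of 16269 genes were below it in wild type and 3520 in the interaction. Such totals over all genes were not counted in the other settings.

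Shared replicate numbers did not pair the libraries, whose deviations correlated from -0.222 to 0.364 between same-numbered libraries, and a replicate block gave 2 calls in wild type (3.15% of all genes as lower), 2 between genotypes under LPS (4.05% as higher) and 0 for the interaction (edgeR, 0% of all genes; 3 members at an unadjusted p below 0.05, Nkx2-9 at 3.05, adjusted p = 0.0699).

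Reversed signs were those of changes that had not passed. With limma-voom, Zfp488 was at -0.0041 in wild type and Olig1 at -0.0138 between genotypes under PBS. Without both libraries low in choroid plexus genes, Olig1 was at -0.0833 under PBS, and Myrf at -0.0473 and Nkx6-2 at -0.178 between genotypes under LPS. Without both libraries at odds with their labels these were -0.0547, -0.0412 and -0.171, and the interaction of Nkx6-2 was -0.0099. When a library was left out, log2 fold changes under LPS between genotypes ran from -0.0412 to 0.397 for Myrf, -0.172 to 0.302 for Nkx6-2 and -0.0118 to 0.0715 for Zfp488. Under PBS they ran from -0.0834 to 0.05 for Olig1, -0.146 to 0.0352 for Olig2 and -0.107 to 0.0412 for Nkx2-2. In the knockout they ran from -0.112 to 0.0099 for Sox10, -0.0136 to 0.113 for Sox8, -0.165 to 0.0022 for Myrf, -0.0365 to 0.425 for Nkx2-9 and -0.0707 to 0.0337 for Zfp488. In wild type they ran from -0.0093 to 0.117 for Zfp488, and the interaction of Nkx6-2 from -0.047 to 0.426.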
